A study of Homo sapiens with 6 samples.

Results

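Among the places in HaCaT chromatin where the AP-1 subunits FOSL2 and JUNB were both found away from gene ends, 732 pairs of regions ranked much higher for JUNB than for FOSL2. They were taken from 28166 distal shared pairs, which in turn came from 30802 autosomal JUNB regions with a FOSL2 region among 40061 JUNB and 75704 FOSL2 regions in all. A pair is a JUNB region and the FOSL2 region with which it shares the most bases, at least 1 bp. It is called distal when the JUNB summit, the position of highest signal, lies more than 1000 bp from both ends of every protein-coding gene. Within these pairs the fold enrichment of each factor (signal over background, the authors' value per region) was turned into a percentile, and a pair favours JUNB when its JUNB percentile exceeds its FOSL2 percentile by at least 0.40. The members were thus chosen by the measured fold enrichments of both factors, so 732 pairs, or 2.60% of the distal shared pairs, is a description. In the opposite direction 1148 pairs (4.08%) favoured FOSL2 by at least 0.40.

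HaCaT is a spontaneously immortalised human keratinocyte line. All 6 libraries came from this line, without a treatment named in the labels: 3 were made with an antibody to FOSL2 and 3 with an antibody from another supplier to JUNB. Library preparation was by ChIPmentation, where adapters are inserted by a transposase while the chromatin is still on the antibody beads, in a study of enhancer activity at atopic dermatitis risk variants. Each factor had 1 list of regions for its 3 libraries together, so there is no replicate error, the depth per library is unknown, and no test between the factors was possible. Intervals below cover counting error over regions only, and neighbouring regions are not independent. The lists hold no expression values, so keratinocyte markers could not be checked.

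AP-1 is a dimer of basic leucine zipper proteins. JUN-family proteins such as JUNB can pair with themselves or with FOS-family proteins such as FOSL2, whereas FOS-family proteins need a JUN-family or other partner. The dimer recognises the sequence TGANTCA, with TGACTCA and TGAGTCA as its usual forms, and some dimers prefer the longer TGACGTCA. In epidermis AP-1 is known for its part in keratinocyte differentiation, wound repair and inflammation, much of it through enhancers far from promoters.

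Some of these distal regions lay on transcription starts. A gene's outer ends do not include the internal starts of its shorter transcripts or the starts of long noncoding RNAs, and sequence was at hand for the 300 bases around such starts (250 before and 50 after, RefSeq, GRCh38.p14). The JUNB summit fell in such a window in 22 of the 692 pairs favouring JUNB on the autosomes for which windows were used, 13 at starts of long noncoding RNAs and 9 at starts of protein-coding genes. Of the 22 windows, 7 (31.8%, 95% Wilson interval 16.4 to 52.7) held TGANTCA and 1 held TGACGTCA. Both motifs read the same on either strand, so a search of 1 strand covers both. Among the 25105 pairs on the same autosomes that favoured neither factor, 442 had the summit in a window and 49.8% of these windows (45.1 to 54.4) held TGANTCA, an interval that overlaps the first. The 2 groups were not matched for FOSL2 fold enrichment, which the rule makes lower in members. The share was 7.71% of all 35116 windows, and TGACGTCA was in 1.85% of them. The 7 windows with TGANTCA had JUNB fold enrichments of 7.07 to 9.60, and the 15 without had 5.33 to 19.0, with medians of 7.53 and 6.06. FOSL2 values were 6.08 to 8.21 with the motif and 2.77 to 6.90 without. The rule uses the fold enrichments of both factors and ties them together in members, so these ranges are a description.

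The stretches below show up to 100 bases on either side of the JUNB summit, within the window and at most 30 bases past the start, 5′ to 3′ on the gene's strand. Capitals mark TGANTCA and TGACGTCA. The first 5 are those with a motif that had the highest JUNB fold enrichment or the most matches, and the last 3 are strong or keratinocyte-related members whose window holds neither.
LOC124906269 (chr3:115790884-115791084, plus): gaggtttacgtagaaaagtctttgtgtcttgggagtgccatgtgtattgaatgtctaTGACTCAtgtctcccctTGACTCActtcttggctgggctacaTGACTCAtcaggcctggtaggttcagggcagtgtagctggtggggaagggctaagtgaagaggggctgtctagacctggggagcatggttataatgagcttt
LOC124902402 (chr10:29863081-29863276, minus): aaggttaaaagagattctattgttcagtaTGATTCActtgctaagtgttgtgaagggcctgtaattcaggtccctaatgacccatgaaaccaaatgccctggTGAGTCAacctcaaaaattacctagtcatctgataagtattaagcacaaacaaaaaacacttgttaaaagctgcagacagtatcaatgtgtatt
LOC107986160 (chr3:183285872-183286072, plus): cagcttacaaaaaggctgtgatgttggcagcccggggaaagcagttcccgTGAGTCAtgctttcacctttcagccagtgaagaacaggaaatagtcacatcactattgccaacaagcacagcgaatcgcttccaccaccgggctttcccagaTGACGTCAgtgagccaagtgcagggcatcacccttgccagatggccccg
VAV3 (chr1:107688499-107688699, minus): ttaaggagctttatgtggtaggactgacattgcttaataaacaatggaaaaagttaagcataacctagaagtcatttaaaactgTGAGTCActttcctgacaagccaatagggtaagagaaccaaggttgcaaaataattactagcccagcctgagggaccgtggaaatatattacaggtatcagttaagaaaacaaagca
DDC-AS1 (chr7:50531509-50531618, plus): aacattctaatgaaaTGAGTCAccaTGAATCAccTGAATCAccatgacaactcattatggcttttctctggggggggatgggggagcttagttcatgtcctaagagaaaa
LOC100630923 (chr7:102363611-102363767, plus): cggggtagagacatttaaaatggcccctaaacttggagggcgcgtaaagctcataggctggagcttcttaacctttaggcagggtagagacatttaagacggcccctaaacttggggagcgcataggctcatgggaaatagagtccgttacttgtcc
TMEM9 (chr1:201154538-201154724, minus): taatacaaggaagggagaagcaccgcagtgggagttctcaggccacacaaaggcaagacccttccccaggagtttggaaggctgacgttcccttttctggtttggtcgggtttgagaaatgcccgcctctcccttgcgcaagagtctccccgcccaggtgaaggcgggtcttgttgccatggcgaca
TJP1 (chr15:29821450-29821644, minus): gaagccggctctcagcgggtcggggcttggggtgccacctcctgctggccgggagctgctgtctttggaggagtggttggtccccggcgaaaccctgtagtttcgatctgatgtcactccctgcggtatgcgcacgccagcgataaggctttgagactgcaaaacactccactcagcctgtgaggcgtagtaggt

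The first 5 stretches were chosen because they hold a motif. At the start of LOC124906269, 11390 bp from the end of LSAMP, 3 copies of TGACTCA were found, the nearest centred 2 bp from the JUNB summit, with fold enrichments of 9.60 (JUNB) and 8.21 (FOSL2). DDC-AS1 held 1 TGAGTCA and 2 copies of TGAATCA, the nearest match centred 9 bp from the summit, with 7.07 and 6.35. At an internal start of VAV3, which encodes a guanine nucleotide exchange factor, a TGAGTCA lay 13 bp from the summit, with 7.53 and 6.08. LOC124902402, 126245 bp from the end of SVIL, had TGAGTCA 10 bp from the summit, with 8.09 and 7.13. The window of LOC107986160, near B3GNT5, held TGAGTCA and TGACGTCA, the nearer 47 bp from the summit, with 8.03 and 7.57.

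The windows without a match included the member with the highest JUNB value. At the start of LOC100630923 JUNB had a fold enrichment of 19.0 and FOSL2 4.31. At an internal start of TMEM9, a lysosomal membrane protein gene, the values were 9.20 and 2.77, and the JUNB region was 951 bp wide against 288 bp for FOSL2. An internal start of TJP1, which encodes the tight-junction scaffold ZO-1, had 6.08 and 4.53. No match says only that these letters are not in the 300 bases.

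Over all members, JUNB fold enrichment ran from 4.97 to 19.0 with a median of 7.01 (interquartile range 6.25 to 7.95), against 5.34 (4.04 to 7.04) over all distal shared pairs. FOSL2 fold enrichment ran from 2.48 to 8.63 with a median of 6.16 (5.21 to 6.99), against 7.98 (5.99 to 9.79). The rule sets these differences, and levels of the 2 lists are not on 1 scale. Most members were thus above the middle for JUNB and below it for FOSL2: the median JUNB percentile was 0.746 and the median FOSL2 percentile 0.269. Only 87 members had a JUNB percentile of at least 0.90, 78 had a FOSL2 percentile under 0.10, and 25 had a JUNB percentile under 0.50.

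**Figure D1:**
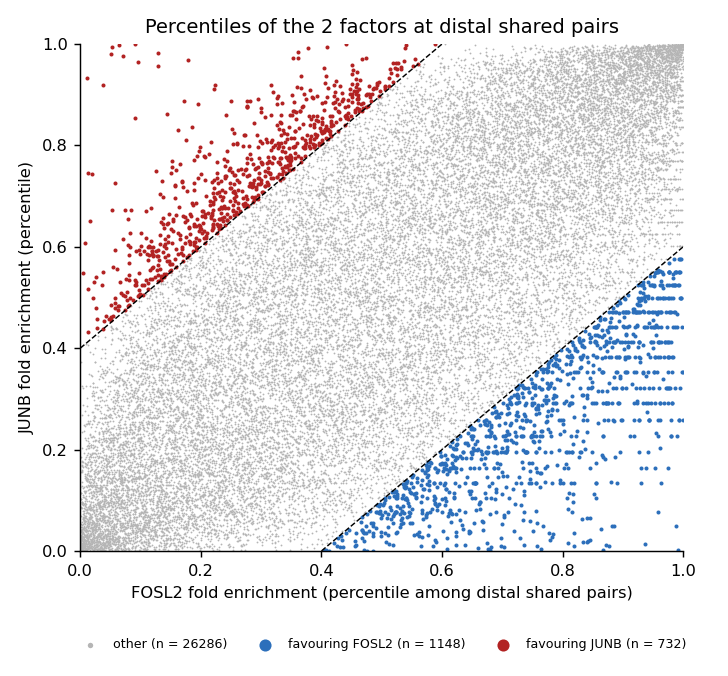
Each point is 1 distal shared pair, with the percentile of its FOSL2 fold enrichment on the x axis and of its JUNB fold enrichment on the y axis, and dashed lines at a difference of 0.40. The 732 pairs favouring JUNB (red) lie mostly close to their line, 564 of them with a difference under 0.50, and few reach the upper left corner.

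The percentile difference had a median of 0.448, and 564 members stayed under 0.50, 38 reached 0.60 and 10 reached 0.80. The members just inside the threshold were nearest to TJP1 (0.4001), GRIA1 (0.4003) and TFAP2C (0.4003), with JUNB fold enrichments of 7.07, 6.13 and 7.62 and FOSL2 fold enrichments of 6.88, 5.77 and 7.33. Just outside were pairs nearest to RTN4 (0.3997) and TINAGL1 (0.3993), with 6.46 and 5.52 for JUNB and 6.22 and 4.79 for FOSL2.

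The largest difference, 0.942, was inside SLC2A3, the gene of the glucose transporter GLUT3, on chromosome 12 from 7933092 to 7933753, with fold enrichments of 11.9 (JUNB) and 3.74 (FOSL2). A pair inside LGALS3BP, which encodes a secreted galectin-binding glycoprotein, followed at 0.934 with 12.95 and 3.94, on chromosome 17 from 78974411 to 78975618. Its 2 summits were 2 bp apart, while the JUNB region spanned 1208 bp and the FOSL2 region 226 bp. FBXO46, an F-box gene (10.7 and 3.72), TMEM9 (9.20 and 2.77) and the pair near SPDYE6 described above (19.0 and 4.31) came next. A pair inside IMMP2L, a mitochondrial peptidase gene, and nearest to an end of LRRN3 had 10.4 and 4.05, and a pair inside USP42, a deubiquitinase gene, had 9.98 and 4.37. In each of these 7 the JUNB percentile was over 0.90 and the FOSL2 percentile under 0.10.

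The other 3 of the 10 largest differences were at narrow regions. One lay at the tip of chromosome 1, from 10030 to 10233, with 8.95 (JUNB) and 3.47 (FOSL2). The other 2, on chromosome 8, were 147 and 171 bp wide, with 10.7 and 9.73 for JUNB and 4.79 each for FOSL2. Fold enrichments can recur exactly, and the most frequent FOSL2 value was shared by 546 rows of its list. The FOSL2 value near SPDYE6 recurs inside MEGF6, and the JUNB value at the tip of chromosome 1 recurs near WSB1. Why values recur was not tested, so they are not finely graded strengths. The 10 highest JUNB values among members include 5 pairs nearest to NBPF14, NBPF20, PPIAL4F and PPIAL4H on chromosome 1, with 10.8 to 17.2 for JUNB and 6.95 to 8.63 for FOSL2. The NBPF and PPIAL4 genes are families of near-identical copies, in which short reads cannot always be assigned to 1 copy. These values may be uncertain for that reason, which was not tested. In total 27 distal shared pairs were nearest to a gene of these 2 families, and 8 of them were members, against 2.60% of all distal shared pairs. This grouping was chosen after the values were seen. A pair on chromosome 21 from 8234123 to 8234259, 137 bp wide and 405 kb from the nearest end, had 11.9 and 7.31. Whether repeated sequence affects this pair or the one at the tip of chromosome 1 was not tested. Nor was it tested for the pairs on chromosome 8 or those at SPDYE6 and SLC2A3 named above.

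JUNB regions of members were wide. Their median width was 805.5 bp (interquartile range 640 to 1028), against 608 bp (423 to 812) over all distal shared pairs and 392 bp (284 to 504) in pairs favouring FOSL2. FOSL2 regions differed less, with medians of 921.5, 891 and 846 bp. Width goes with signal, so it is not independent of the rule. In decile 10, the highest, of JUNB fold enrichment the median width was 948 bp in 87 members and 857 bp in the other pairs, and in decile 7 it was 759 bp in 159 members and 710 bp in the others. The order was the opposite in decile 5, with 528 bp in 25 members and 584 bp in the others, and in decile 6, with 633 bp in 99 and 658 bp in the others.

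The JUNB region was the wider of the 2 in 175 of 732 members (23.9%, 95% Wilson interval 21.0 to 27.1), against 6.75% of all distal shared pairs and 0.348% of pairs favouring FOSL2. It lay wholly inside the FOSL2 region in 58.1% of members, against 80.2% of all pairs. The widest member, inside ETV6, an ETS-family repressor gene, had a JUNB region of 2041 bp and a FOSL2 region of 2301 bp, with fold enrichments of 7.86 and 6.82. Members nearest to KMT2E (1845 and 1464 bp) and DBNDD1 (1818 and 2056 bp) followed. At the other end, 12 members (1.64%) had a JUNB region under 200 bp wide, against 3.39% of all pairs and 8.62% of pairs favouring FOSL2.

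**Figure D2:**
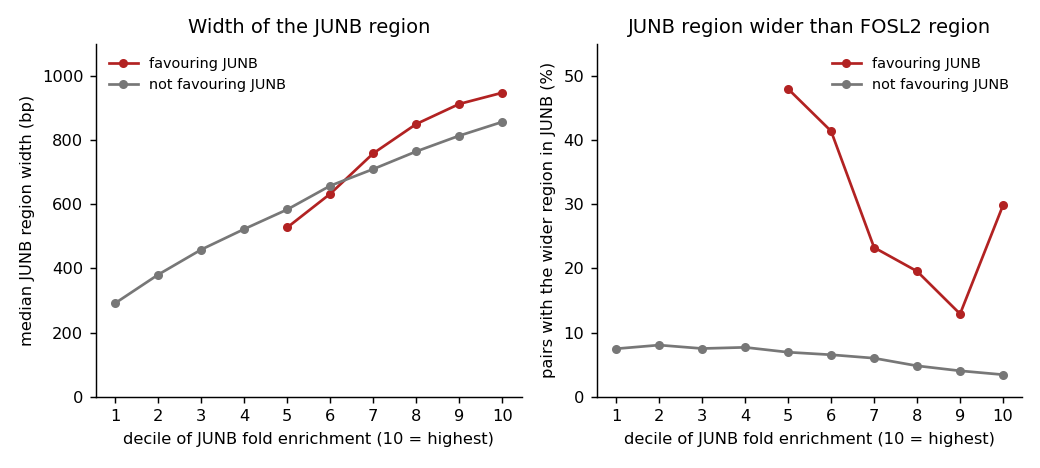
Left, median JUNB region width in bp by decile of JUNB fold enrichment for pairs favouring JUNB and for all other distal shared pairs. Right, the percent of pairs whose JUNB region is wider than the FOSL2 region. Members lie above the others from decile 7 on in width, and in each decile that holds members in the percent with a wider JUNB region.

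The 2 summits of members lay close together, with a median distance of 25 bp (interquartile range 7 to 55), against 30 bp (11 to 64) over all distal shared pairs and 40 bp (14 to 82) in pairs favouring FOSL2. By decile of JUNB fold enrichment the order varied. Medians in members and others were 28 and 32 bp in decile 5, 36 and 29 in decile 6, and 27 and 27 in decile 7. They were 25 and 24 bp in decile 8, 17 and 23 in decile 9, and 25 and 19 in decile 10. Within 50 bp were 70.9% of members (67.5 to 74.1) and 67.3% of all pairs. Summits over 250 bp apart were found in 3.14% of members, 2.81% of all pairs and 11.1% of pairs favouring FOSL2. No 2 members shared a FOSL2 region. In 5 members (0.683%) the JUNB region touched more than 1 FOSL2 region, against 0.0462% of all pairs, and in 1 of them the other FOSL2 region had the higher fold enrichment.

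The authors' −log10 p measures the evidence that a region stands above background, and it also grows with the number of reads. It did not order the pairs as fold enrichment did. The median FOSL2 −log10 p of members was 86.1, against 80.7 over all distal shared pairs, and 386 of 732 members were at or above that median. At like fold enrichment members had the higher −log10 p from a value of 5 up. For FOSL2 values of 6 to 7 the median was 104 (interquartile range 71.5 to 139) in 213 members and 53.3 (39.1 to 79.8) in 3069 pairs that favoured neither factor. For JUNB values of 7 to 8 it was 66.2 (48.6 to 80.5) in 191 members and 43.8 (36.1 to 54.5) in 2768 others. In these 2 bands regions of members were also wider, with medians of 1018 and 803 bp for FOSL2 and 904 and 795 bp for JUNB. Within a band of 1 factor the rule still sets the groups apart by the other factor. At FOSL2 values of 3 to 4 the medians were 17.9 in 35 members and 19.0 in the others, and at 4 to 5 they were 28.4 in 112 and 29.1 in the others. With −log10 p ranked in place of fold enrichment, 421 pairs favoured JUNB, and 224 of the 732 members were among them (30.6%).

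**Figure D3:**
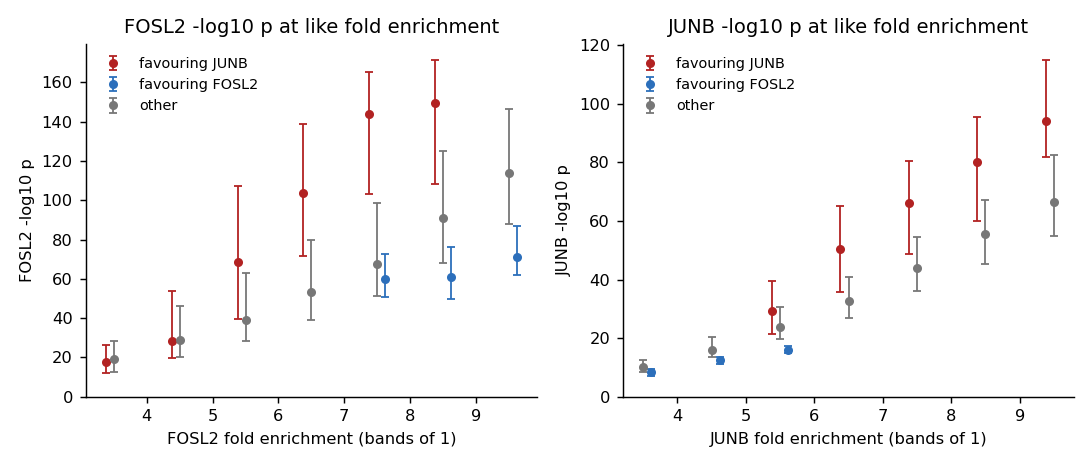
Median −log10 p (points) with interquartile range (bars) in bands of 1 unit of fold enrichment, for FOSL2 (left) and JUNB (right), in groups of at least 20 pairs. Pairs favouring JUNB (red) have higher medians than pairs favouring neither factor (grey) from a fold enrichment of 5 up, in both panels.

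By place, members differed little from other distal pairs in lying inside genes: 350 of 732 JUNB summits (47.8%, 95% Wilson interval 44.2 to 51.4) were inside a protein-coding gene, against 50.4% of all distal shared pairs and 49.9% of pairs favouring FOSL2. The nearest protein-coding gene end was a median of 29.5 kb away (interquartile range 11.04 to 80.9), against 33.4 kb over all pairs and 44.7 kb in pairs favouring FOSL2. With a −log10 q of at least 10 required in both lists, it was 33651.5 bp in pairs favouring JUNB and 33710 bp in the remaining pairs. Ends were over 100 kb away for 19.8% of members (17.1 to 22.9), 23.6% of all pairs and 31.4% of pairs favouring FOSL2.

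Annotated starts were nearer to members than to the others. Away from chromosome 8, 44 of 692 members (6.36%, 95% Wilson interval 4.77 to 8.43) had the JUNB summit within 1 kb of a start, against 3.91% of all distal shared pairs, 3.94% (3.70 to 4.18) of those favouring neither factor and 1.74% (1.11 to 2.69) of those favouring FOSL2. Of the 44 starts 18 belonged to protein-coding genes and 26 to long noncoding RNAs. Examples, chosen after their values were seen, are MAP2K3, a kinase gene of the p38 pathway (fold enrichments of 7.33 for JUNB and 6.83 for FOSL2), CNN3 (5.92 and 4.78) and RUFY1 (5.94 and 5.22). Among the noncoding RNAs are NORAD, an RNA known to bind Pumilio proteins (5.96 and 4.19), and SNHG11 (5.66 and 4.63).

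The share near starts also moves with FOSL2 strength, so it was set out by deciles of FOSL2 fold enrichment. In decile 1, the lowest, it was 10.7% in 75 members (5.50 to 19.7) and 6.73% in 2659 others (5.84 to 7.75), and in decile 2 it was 7.95% in 151 (4.60 to 13.4) and 4.70% in 2552 (3.95 to 5.59). In deciles 3, 4 and 6 it was 6.94%, 6.25% and 4.55% in members, and 4.16%, 4.23% and 3.57% in the others. In decile 5 it was 0.901% in members (1 of 111) and 3.77% in the others. Intervals of members and others overlapped in each decile that held both. At most 12 members of a decile lay near a start, so these intervals are wide and the overlap does not settle the question. With the ends of all annotated genes in place of protein-coding genes, the share was 2.78% in pairs favouring JUNB and 1.66% in all other pairs.

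**Figure D4:**
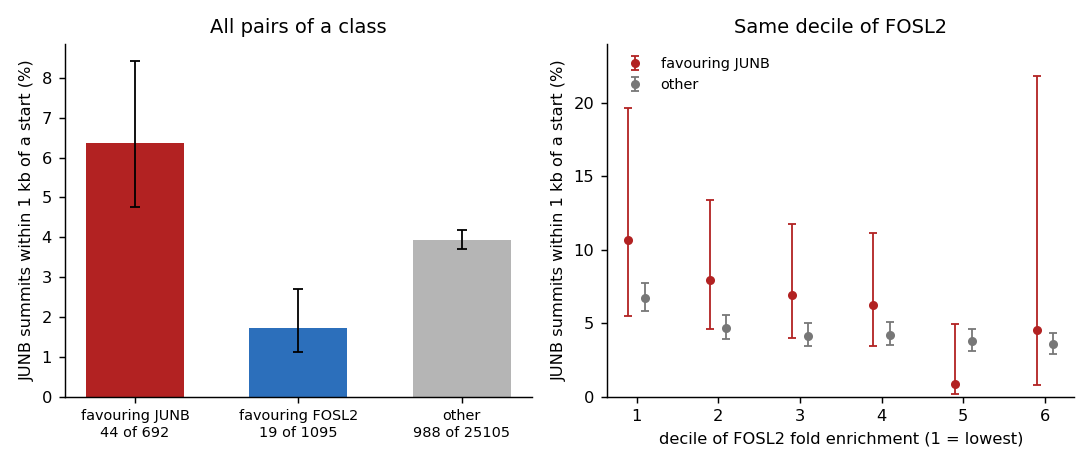
Percent of JUNB summits within 1 kb of an annotated start, with 95% Wilson intervals, by class (left, bars from 0) and by decile of FOSL2 fold enrichment (right). The class favouring JUNB reaches 6.36%, and within deciles its intervals overlap those of the other pairs.

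Members lay in denser surroundings than all distal shared pairs. Pairs were not matched here for JUNB fold enrichment, which the rule uses. Within 50 kb of the JUNB summit there were a median of 4 other JUNB regions and 6 other FOSL2 regions, against 3 and 4 over all distal shared pairs and 1 and 3 in pairs favouring FOSL2. No other JUNB region was found within 50 kb of 29 members (3.96%), against 13.9% of all pairs and 33.5% of pairs favouring FOSL2. Another member lay within 50 kb of 75 members (10.2%), and another pair favouring FOSL2 within 50 kb of 57 of the 1148 that favoured FOSL2 (4.97%). No such share was taken over all distal shared pairs.

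Every autosome held members, from 10 on chromosome 21 to 83 on chromosome 1. As a share of its distal shared pairs, chromosome 4 was lowest with 16 of 972 (1.65%, 1.02 to 2.66) and chromosome 21 highest with 10 of 266 (3.76%, 2.05 to 6.78). These 2 intervals overlap. Chromosome 4 was also where most pairs favoured FOSL2, 139 (14.3%), against 4.08% over all autosomes.

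The 732 members had 668 different nearest genes, of which 608 were nearest to 1 member, 56 to 2 and 4 to 3. The 4 genes were TJP1 (3 of 12 distal shared pairs), EEA1, an endosome tether (3 of 15), MARCKS, a protein kinase C substrate (3 of 21), and TNS3, a focal-adhesion tensin (3 of 29). All 3 TJP1 members lay inside the gene, with fold enrichments of 7.07, 6.70 and 6.08 for JUNB and 6.88, 6.05 and 4.53 for FOSL2. The MARCKS members were 212 to 737 kb from that gene's nearest end, so the nearest gene is a label of place and not a known target. AMN1 was nearest to 2 members, with 9.40 and 6.16 for JUNB and 8.10 and 5.05 for FOSL2.

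Of 15 gene lists with 360 genes, 53 members (7.24%, 5.58 to 9.35) had a listed nearest gene, against 4.04% of all distal shared pairs. The counts below are read against 2.60%, the share of all distal shared pairs that favoured JUNB. Medians are read against 0.0060, the median percentile difference of all distal shared pairs. Both come from the same percentile differences, so the median of a list is not separate support. No test of a list was made. Below, the first value of a gene is its JUNB and the second its FOSL2 fold enrichment unless stated, and genes beyond the 2 with the highest JUNB value in a list were named after their values were seen.

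Basal-layer and basement-membrane genes were nearest to 122 distal shared pairs, of which 8 favoured JUNB (6.56%, 3.36 to 12.4) and 0 favoured FOSL2, with a median difference of 0.0674 over the 122. The 8 were at 8 genes. DST, a plakin of the hemidesmosome, had 9.16 (JUNB) and 7.71 (FOSL2) at a site 205 kb inside the gene, and the receptor gene NOTCH3 had 8.83 and 7.88. ITGB6 and ITGA6, integrin subunits, had 7.75 and 7.26, and 7.62 and 6.49. TP63, whose p63 protein keeps epithelial stem cells, had 6.82 and 6.52 at a site 77.1 kb inside the gene. EGFR and ITGB1 had 6.84 and 5.79, and 5.92 and 5.45.

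Suprabasal differentiation and junction genes had 9 of 130 pairs favouring JUNB (6.92%, 3.68 to 12.6) and 2 favouring FOSL2, with a median difference of 0.0975. The 9 were at 5 genes. Besides the 3 pairs of TJP1 these were 2 at DSC1, a desmosomal cadherin (8.44 and 6.38 for JUNB, 7.62 and 5.93 for FOSL2), and 2 nearest to ZNF750, a differentiation factor, which lay inside the neighbouring TBCD (6.71 and 5.53, 6.45 and 4.32). DSG2 had 5.57 and 4.63. The differentiation factor KLF4 had 6.89 and 6.33, 266 kb from its end.

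Cornified envelope genes had 2 of 34 pairs (5.88%, 1.63 to 19.1; median difference 0.0791): involucrin, IVL, had 6.65 (JUNB) and 6.06 (FOSL2) 2.16 kb from its end, and periplakin, PPL, 5.91 and 4.75. Stress keratin and wound repair genes had 4 of 99 (4.04%, 1.58 to 9.93; median 0.0958). MMP10, a stromelysin, accounted for 2, with 7.64 and 7.21 for JUNB and 6.89 and 6.42 for FOSL2. The intervals of these 2 lists include 2.60%. Pairs favouring FOSL2 numbered 0 in the cornified envelope list and 1 in the stress keratin list.

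EGF receptor and MAPK response genes held the most members, 12 of 177 pairs (6.78%, 3.92 to 11.5) at 9 genes, with 7 favouring FOSL2 and a median difference of 0.0649. ERRFI1, whose protein blocks the receptor's kinase, had 8.77 (JUNB) and 7.96 (FOSL2), and PHLDA1 8.05 and 7.25, with a second member at 7.13 and 6.80. SPRY2, another feedback inhibitor, had 7.54 and 6.08, 249.5 kb from its end. IER3 had 7.34 and 5.64, and the KLF6 members had 7.29 and 7.21 for JUNB and 6.53 and 6.98 for FOSL2. DUSP6 and DUSP1, MAPK phosphatases, had 6.29 and 5.06, and 5.98 and 5.43.

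YAP and TEAD genes had 6 of 108 pairs (5.56%, 2.57 to 11.6; median 0.0867) and TGF-beta genes 7 of 146 (4.79%, 2.34 to 9.57; median 0.0617), and both lists hold the ligand gene TGFB2. In each of the 2 lists 3 pairs favoured FOSL2 (2.78% and 2.05%). TGFB2 was nearest to 2 members, 9.01 and 8.28 for JUNB and 7.30 and 7.67 for FOSL2, 52.1 and 15.5 kb from its end. WWTR1, which encodes TAZ, had 7.20 and 6.84 and a second member of 5.38 and 4.48, both inside the gene. TEAD1 had 6.14 and 4.44. Of the TGF-beta list, the corepressor gene TGIF1 had 8.33 and 6.22, and the inhibitory SMAD6 and SMAD7 had 8.28 and 7.70, and 6.86 and 6.52.

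The remaining lists had few members. AP-1 and related factors had 2 of 71 pairs (2.82%, 0.776 to 9.70; median 0.0323), among them a pair nearest to JUN (5.56 and 4.84). Wnt genes had 1 of 72 (WNT7A, 6.22 and 5.35; median 0.0022), type 2 cytokine and IL-22 receptor genes 1 of 45 (IL6R, 8.72 and 6.60; median 0.0247) and keratinocyte inflammation genes 0 of 56 (median 0.0169), where the Wilson interval allows a share of up to 6.42%. Housekeeping genes had 1 of 24 (median 0.0224), fibroblast markers 1 of 39 (COL5A1, 8.83 and 5.73; median 0.0197), melanocyte markers 1 of 14 (KIT, 6.32 and 4.15; median 0.0507) and T-cell markers 0 of 17 (median -0.0263). Pairs favouring FOSL2 numbered 3 in the AP-1 (4.23%), fibroblast (7.69%) and T-cell (17.6%) lists. There was 1 in each of the Wnt, type 2 cytokine and melanocyte lists, and 0 in the inflammation and housekeeping lists.

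**Figure D5:**
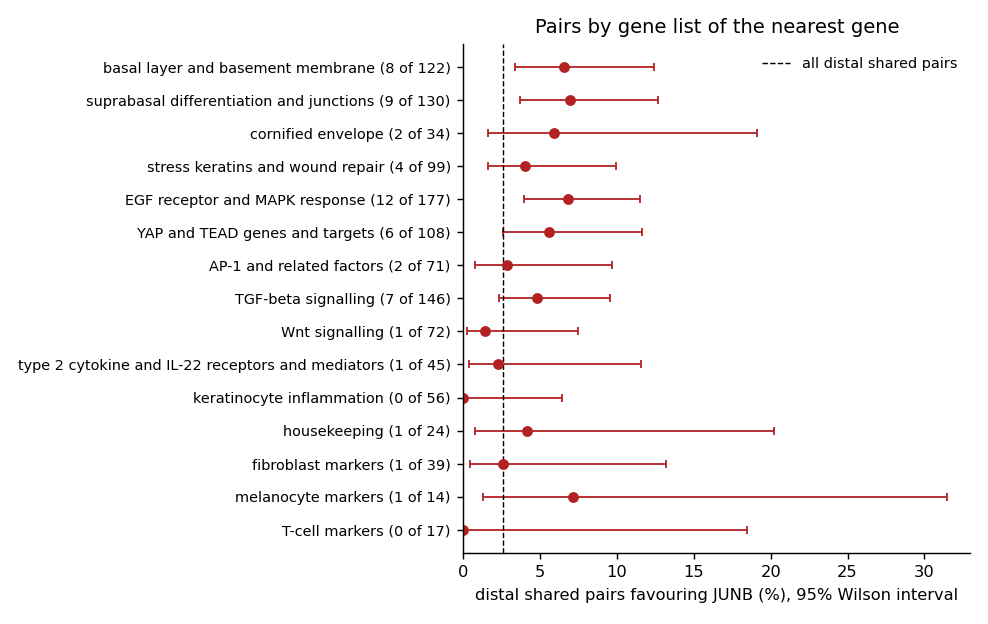
Percent of distal shared pairs favouring JUNB by gene list of the nearest protein-coding gene, with 95% Wilson intervals, the counts beside each name and a dashed line at 2.60%, the share over all distal shared pairs. The intervals of 3 lists (basal, suprabasal and EGF receptor) lie above the line, and those of the other 12 include it. The intervals treat pairs near the same gene as independent. TJP1 accounts for 3 of the 9 suprabasal members, and that share was not computed without it.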

How the data were processed

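FOSL2 and JUNB were measured by ChIP-seq in HaCaT cells, with 3 libraries per factor. Per the submitters' processing notes, Bowtie2, SAMtools 1.8, Picard 1.89, MACS2 and deepTools were used. The deposited lists hold, for each region on hg38, a score, a fold enrichment, a −log10 p and a −log10 q, which are the authors' values. The way the 3 libraries became 1 list, the control used and the options of the caller are not stated in the labels and not given in the sources used here. The depth of each library is therefore unknown, and no value per library entered any comparison.

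Regions were paired by overlap on autosomes, and places were taken from RefSeq genes and start windows on GRCh38.p14, and chromosome 8 was left out of measures of starts since no windows of it were used here. Python 3.11.15, pandas 2.3.3, numpy 2.4.6, scipy 1.17.1 and matplotlib 3.10.9 were used. The pairing and distance steps were tested on simulated data. Shares have 95% Wilson intervals, and no p-value was computed. Pairs were named if they had the 10 largest percentile differences, the 10 highest JUNB fold enrichments, up to 2 of the highest in each of 15 gene lists, the 3 on either side of the threshold, the 5 genes nearest to most members, or the 3 widest JUNB regions. Some of the pairs this names are not reported here. The members and lists were chosen with earlier results of these data known. Other overlaps, thresholds, rankings and distances were tried.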

Additional observations from a re-analysis of the deposited data

How the results depend on the processing

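The share inside genes stayed within its interval under all 12 alternatives tried. The number of pairs favouring JUNB was 2177 at a percentile difference of at least 0.30, 168 at 0.50, 421 ranked by −log10 p and 46 with percentiles among all regions of each list, of which 41 were among the 732. Under these 4 settings in the same order, 149, 12, 26 and 2 pairs had a listed nearest gene, and with the ends of all annotated genes 16 did. As shares these were 6.84%, 7.14%, 6.18%, 4.35% and 2.35%, against 3.81%, 4.02%, 4.01%, 4.04% and 1.36% of the remaining pairs. With percentiles among all regions, 2 of 46 pairs are too few to tell whether a difference was left. The share near a start was 10.6% at 0.50, 9.63% ranked by −log10 p and 13.95% (6 of 43) with percentiles among all regions. It was 2.78% with the ends of all annotated genes and 11.1% for starts within 2500 bp. In each setting run it was above that of the remaining pairs. The median summit distance was 21 bp for summits within 100 bp, 33 bp ranked by −log10 p and 52 bp with percentiles among all regions. In the last 2 settings the remaining pairs had 30 bp, so the order turned. The median gene-end distance was 22782 bp ranked by −log10 p, 23573 bp with percentiles among all regions and 11649.5 bp with the ends of all annotated genes. With both regions at least 400 bp wide it was 33887 bp, against 34033 bp in the remaining pairs. The median JUNB width was 867 bp at a reciprocal overlap of at least 50%, 702 bp ranked by −log10 p, 566 bp with percentiles among all regions (608 bp in the remaining pairs), 885 bp at a −log10 q of at least 10 in both lists and 880 bp with both regions at least 400 bp wide. The cause of these shifts was not tested. The width setting and all settings of the start share were chosen after seeing the data. No paired analysis was possible because the lists hold no values per library, and no library could be left out for the same reason. Motifs at all summits were not run, since no genome was used here.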

Other observations

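Genes outside the lists were also nearest to 2 members each. Named after their values were seen, they include CTSV, a lysosomal cysteine protease gene (2 of 4 distal shared pairs), GSN, the actin-severing gelsolin (2 of 4), SLC2A3 (2 of 3), F2RL1, the protease-activated receptor PAR2 (2 of 7), and EHF, an epithelial ETS factor (2 of 9). CDKN2B, a cell-cycle inhibitor gene, had 2 of 11. Other genes with 2 members had more pairs, such as TBL1XR1 (2 of 27), FANCL (2 of 19) and SVIL (2 of 19). Having 2 members was the condition for this listing, and 2.60% of all distal shared pairs were members. These counts therefore do not show a local excess.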
